A study of Homo sapiens with 12 samples.

Results

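The 39 HOX genes of the human genome were examined for the histone marks H3K27ac and H3K4me1 in Huh7, a hepatocellular carcinoma cell line, grown with or without choline. Members were all protein-coding RefSeq genes with a symbol of HOXA, HOXB, HOXC or HOXD followed by a number, 39 of 19974 protein-coding genes on chromosomes 1 to 22 and X. They comprised 11 HOXA, 10 HOXB, 9 HOXC and 9 HOXD genes. Each cluster was also treated as 1 locus, from the lowest to the highest annotated end of its HOX genes. The groups were wild-type Huh7 cells given 15 µM choline for 48 h and wild-type Huh7 cells given 0 µM choline for 48 h. All cells grew in custom DMEM lacking choline chloride, with B-27 in place of fetal bovine serum, and Huh7 is a single tumour-derived line. For each mark and dose there was 1 library, so every difference below lies between 2 libraries and has no replicate check. Of the 12 samples in the series, 4 ChIP-seq libraries were analysed, through lists of peak summits, and 8 were not analysed here.

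HOX genes encode homeodomain transcription factors that give cells their position along the body axis. The genes stand in clusters in the order in which they act: low-numbered (anterior) genes near one end are used in the hindbrain and neck region, and high-numbered (posterior) genes near the other end in the lower trunk, limbs and genital region. Active genes of a cluster carry H3K27ac, a mark of active promoters and enhancers. H3K4me1 marks enhancers, active or primed, and the flanks of promoters. Silent HOX genes are usually held by Polycomb proteins under another mark, H3K27me3, which was not analysed here.

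In both cultures H3K27ac was listed in parts of HOXA and HOXC, and the HOXB and HOXD clusters held no H3K27ac summit at either dose. Within HOXA the H3K27ac summits lay on the side of the low-numbered genes, up to HOXA5, most of them in HOXA3, and within HOXC they lay between HOXC10 and HOXC9. H3K4me1 summits were listed in all 4 clusters. HOXA and HOXC were among the denser parts of the genome in that mark, and the HOXB1 to HOXB5 stretch held none.

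The promoter of HOXA3, a gene of the third paralogue group needed for pharyngeal organs such as the thymus, is shown because the highest-scoring H3K27ac summit of any HOX cluster lay beside it in both lists. It covers chr7:27122323-27122622 (GRCh38.p14, minus strand), running from 250 bases before to 50 after the start. A further HOXA3 start, at chr7:27113793-27114092 on the minus strand, is shown because it had the most matches to CCNCNCCC (reverse complement GGGNGNGG), a core shared by KLF and SP factors. The series concerns KLF5, a member of that family. Its 9 overlapping matches, in 5 stretches, are in capitals. The promoter of HOXB1, chr17:48530962-48531261 on the minus strand, is shown as a gene with no summit of either mark nearby. Its capitals mark the match to TGATNNAT (reverse complement ATNNATCA), the joint HOX and PBX motif. In mouse, Hoxb1 maintains its own hindbrain expression together with Pbx. All 3 sequences are 300 bases long, from RefSeq.
HOXA3, start 27122372: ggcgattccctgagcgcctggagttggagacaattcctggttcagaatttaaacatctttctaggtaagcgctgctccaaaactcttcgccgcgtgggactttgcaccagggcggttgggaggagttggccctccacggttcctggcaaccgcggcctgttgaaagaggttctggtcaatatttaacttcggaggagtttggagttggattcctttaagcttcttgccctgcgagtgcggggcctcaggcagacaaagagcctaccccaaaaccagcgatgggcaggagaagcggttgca
HOXA3, start 27113842: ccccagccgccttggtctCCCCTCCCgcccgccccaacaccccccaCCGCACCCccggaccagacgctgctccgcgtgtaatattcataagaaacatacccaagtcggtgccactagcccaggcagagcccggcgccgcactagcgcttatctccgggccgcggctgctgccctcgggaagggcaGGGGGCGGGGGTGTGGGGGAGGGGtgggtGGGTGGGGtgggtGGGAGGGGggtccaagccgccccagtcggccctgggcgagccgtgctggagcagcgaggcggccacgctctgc
HOXB1, start 48531011: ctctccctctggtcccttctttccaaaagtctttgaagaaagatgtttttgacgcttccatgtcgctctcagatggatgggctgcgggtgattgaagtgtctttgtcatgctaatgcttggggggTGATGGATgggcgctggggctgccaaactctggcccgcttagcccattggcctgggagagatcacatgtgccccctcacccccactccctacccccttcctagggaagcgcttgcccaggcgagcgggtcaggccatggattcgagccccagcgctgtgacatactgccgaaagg

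The clusters also hold microRNA genes, short repressor RNAs whose seed pairs with target messages. The miR-196 family, shown with bases 2 to 8, the seed, in capitals, is encoded in 3 of the clusters, and HOX messages, such as Hoxb8 in mouse, are known targets. miR-196a and miR-196b share the seed AGGUAGU, while miR-10a, from HOXB, has the seed ACCCUGU. The sequences are RefSeq mature forms.
hsa-miR-196a-5p: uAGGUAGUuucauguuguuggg
hsa-miR-196b-5p: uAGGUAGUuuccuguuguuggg
hsa-miR-10a-5p: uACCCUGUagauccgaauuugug

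Over whole lists, H3K27ac had 29305 summits at 15 µM and 37946 at 0 µM, a ratio of 0.772. H3K4me1 had 349202 at 15 µM and 343156 at 0 µM, a ratio of 1.02. Each summit has the authors' score, a −log10 p-value or q-value, used here to rank summits within a list. Where stated, it also served as a fixed limit, the same at both doses. The score scales of the 2 lists of a mark were not matched, so counts above a limit are descriptive. The median score was 10.3 at 15 µM and 10.9 at 0 µM for H3K27ac, and for H3K4me1 3.47 at 15 µM and 3.48 at 0 µM. Read depth is unknown. Hepatocyte marker genes set a reference for the cell type: 9 of 11 had an H3K27ac summit within 1 kb of a start at 15 µM and 8 of 11 at 0 µM. Among 9 markers of blood, connective tissue, endothelium, neurons and muscle, 2 had one at each dose. These were CD3E and PECAM1 at 15 µM and PECAM1 and SNAP25 at 0 µM. The share of all protein-coding genes was 16.4% at 15 µM and 28.7% at 0 µM. These 9 markers are thus not shown to lie below the background.

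The first question was how much of each mark the 4 clusters held. The HOXA cluster (chr7:27092993-27200091, 107 kb) had 7 H3K27ac summits at 15 µM (exact Poisson 95% interval 2.81 to 14.4), against 11 at 0 µM (5.49 to 19.7). The HOXC cluster (chr12:53938831-54056030, 117 kb) had 3 at 15 µM (0.619 to 8.77), against 7 at 0 µM (2.81 to 14.4). In both clusters the intervals of the doses overlap. The HOXB cluster (chr17:48528526-48728750, 200 kb) and the HOXD cluster (chr2:176087487-176190907, 103 kb) had 0 at both doses, and a count of 0 allows up to 3.69. These intervals cover counting error only.

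Summed over the clusters, H3K27ac had 10 summits at 15 µM (4.80 to 18.4), against 18 at 0 µM (10.7 to 28.4). The shorter 15 µM list alone would give fewer. After the 0 µM count was multiplied by the ratio of list lengths, the difference, 15 µM minus 0 µM, was -1.50 summits in HOXA, -2.41 in HOXC and -3.90 in all. The sums therefore differed by less than their counting error. In each list about as many cluster summits lay above the list's median score as below it, 4 of 10 at 15 µM and 9 of 18 at 0 µM.

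To place these densities, the genome was cut into 30285 tiles of 100 kb, of which 11684 held the midpoint of a protein-coding gene. Of these genic tiles, 61.2% at 15 µM and 49.6% at 0 µM had no H3K27ac summit, so a genic tile without this mark was common. HOXA, at 6.54 summits per 100 kb at 15 µM and 10.3 at 0 µM, was exceeded by 6.63% of genic tiles at 15 µM and 3.76% at 0 µM. HOXC had 2.56 at 15 µM, exceeded by 18.5% of genic tiles, against 5.97 at 0 µM, exceeded by 11.4%. The 2 occupied clusters thus stood in the upper part of the genic distribution at both doses.

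The stretch around HOXB with no H3K27ac summit listed reached beyond its genes. Its nearest summits lay 421 kb to the left and 141 kb to the right at 15 µM, against 471 kb and 139 kb at 0 µM. Around HOXD the nearest lay 235 kb and 126 kb away at 15 µM, against 85.6 kb and 78.8 kb away at 0 µM. The next summits outside HOXA were 110 kb and 147 kb away at 15 µM, against 11.8 kb and 147 kb at 0 µM. Those outside HOXC were 262 kb and 73.0 kb away at 15 µM, against 211 kb and 73.0 kb at 0 µM.

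**Figure D1:**
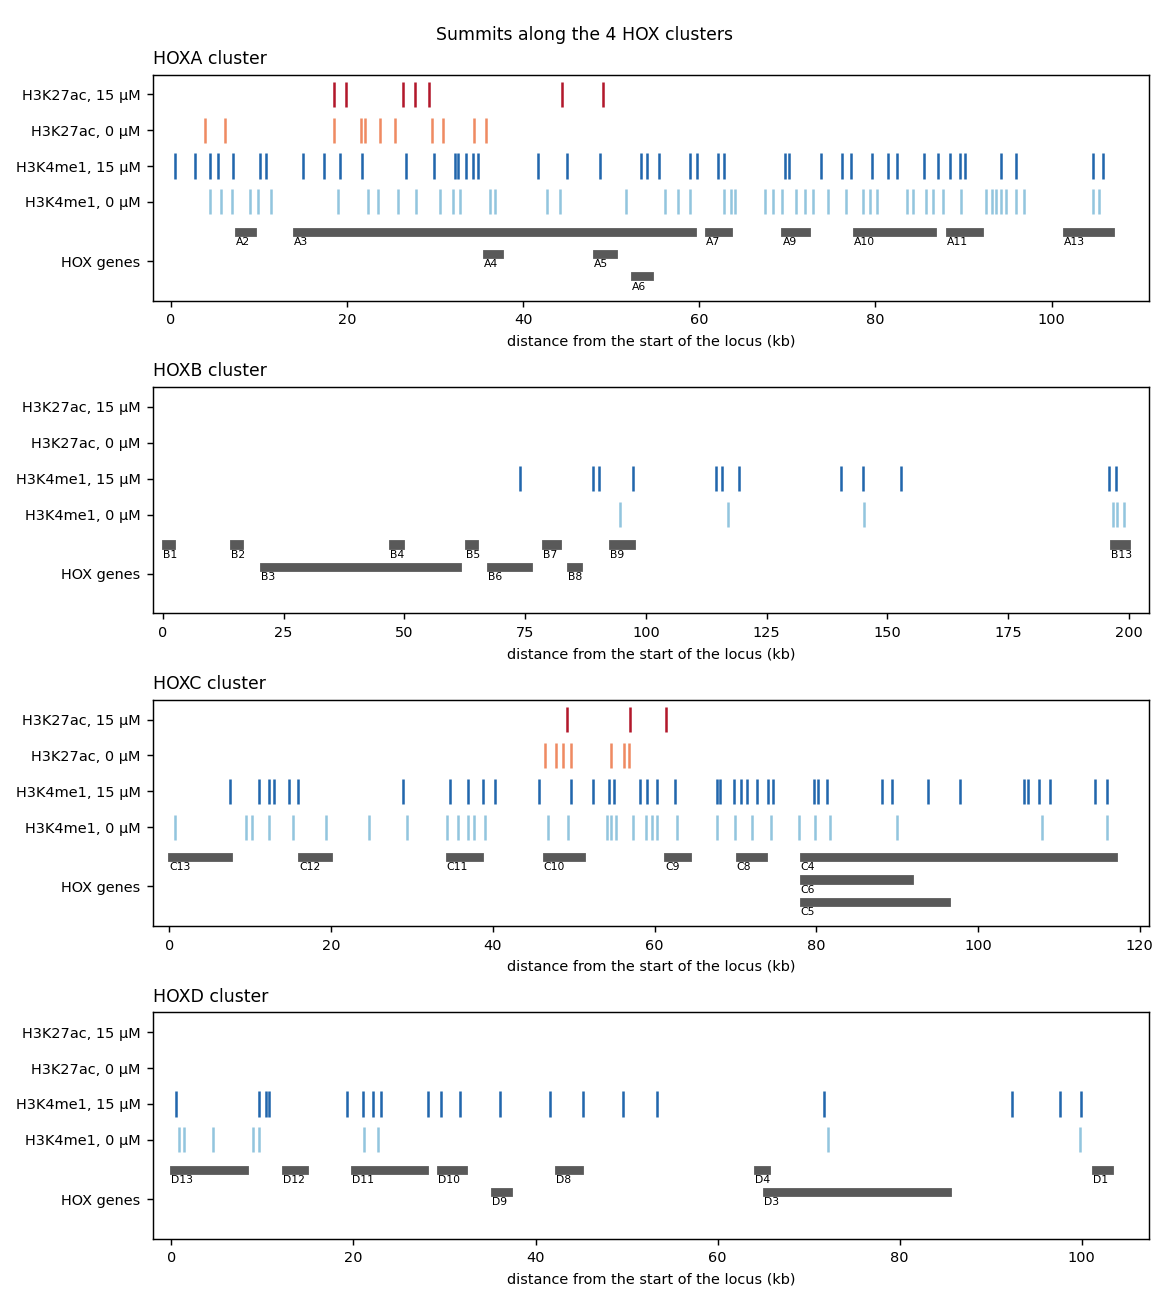
Positions of summits along the 4 HOX clusters, as distance in kb from the start of the locus; each tick is 1 summit, rows are the 4 lists and grey bars HOX genes as annotated. H3K27ac ticks stand on the left side of HOXA, up to HOXA5, and from HOXC10 to HOXC9, and are missing from HOXB and HOXD at both doses.

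H3K4me1 was spread more widely. HOXA had 45 summits at 15 µM (32.8 to 60.2), against 51 at 0 µM (38.0 to 67.1), and HOXC had 41 at 15 µM (29.4 to 55.6), against 33 at 0 µM (22.7 to 46.3). HOXB had 12 at 15 µM (6.20 to 21), against 6 at 0 µM (2.20 to 13.1). HOXD had 20 at 15 µM (12.2 to 30.9), against 9 at 0 µM (4.12 to 17.1). The intervals of the doses overlap in every cluster.

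After scaling by list length, the difference 15 µM minus 0 µM was -6.90 summits in HOXA, 5.89 in HOXB, 7.42 in HOXC and 10.84 in HOXD. The summed counts were 118 at 15 µM (97.7 to 141), against 99 at 0 µM (80.5 to 121), a scaled difference of 17.26. The excess in HOXD and HOXB lay in summits scoring under 5, a limit that 103295 of 349202 summits of the whole list at 15 µM and 107733 of 343156 at 0 µM reached. Counting scores of at least 5 left HOXD with 1 summit at 15 µM and 2 at 0 µM, a scaled difference of -0.92, and left HOXB with 0 at both doses. HOXA then had 14 at 15 µM and 17 at 0 µM, and HOXC had 11 at 15 µM and 8 at 0 µM.

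**Figure D2:**
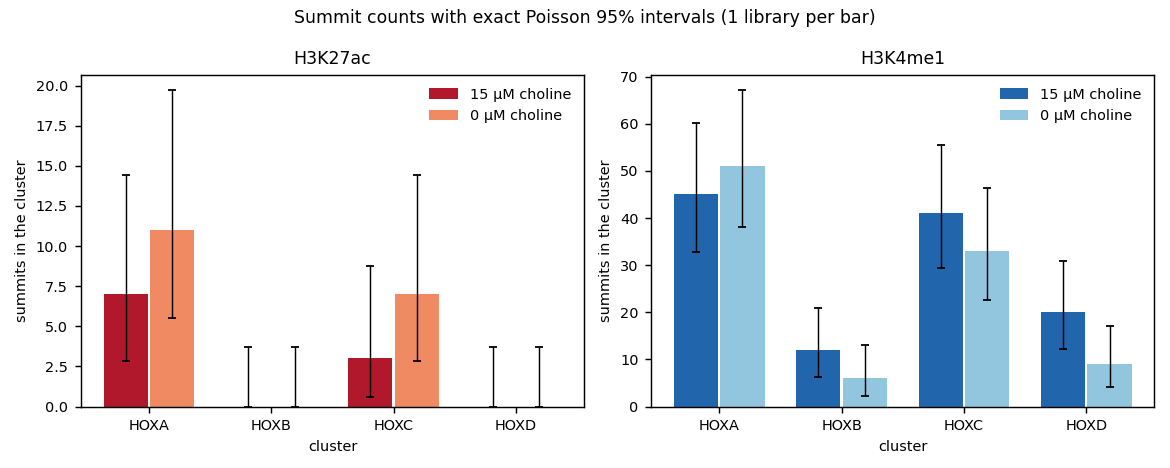
Summits per HOX cluster (vertical axes, counts) for H3K27ac on the left and H3K4me1 on the right, at 15 µM and 0 µM choline. Bars are single libraries with exact Poisson 95% intervals, which overlap between the doses in every cluster.

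Per 100 kb, HOXA held 42.0 H3K4me1 summits at 15 µM, against 47.6 at 0 µM, a density that only 1.28% of genic tiles at 15 µM and 0.454% at 0 µM exceeded. HOXC had 35.0 at 15 µM, exceeded by 5.48% of genic tiles, against 28.2 at 0 µM, exceeded by 13.2%. HOXD had 19.3 at 15 µM, exceeded by 33.9%, against 8.70 at 0 µM, exceeded by 67.4%, which lie on either side of the genic median of 14 summits. HOXB had 5.99 at 15 µM, exceeded by 78.8%, against 3 at 0 µM, exceeded by 88.5%. The order HOXA, HOXC, HOXD, HOXB was the same at both doses, although per unit length the intervals of HOXA and HOXC overlap at each dose, those of HOXC and HOXD at 15 µM and those of HOXD and HOXB at 0 µM.

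Scores gave a similar order at the top. The highest H3K4me1 score was 36.2 at 15 µM and 17.1 at 0 µM in HOXA, and in HOXC 25.6 at 15 µM and 13 at 0 µM. In HOXB it was 4.58 at 15 µM and 4.39 at 0 µM, and in HOXD 5.48 at 15 µM and 5.83 at 0 µM. Above the list's own median score were 23 of 45 HOXA summits at 15 µM and 31 of 51 at 0 µM, and in HOXC 18 of 41 at 15 µM and 12 of 33 at 0 µM. In HOXB they were 3 of 12 at 15 µM and 1 of 6 at 0 µM, and in HOXD 8 of 20 at 15 µM and 2 of 9 at 0 µM. No summit of HOXB or HOXD came near the top scores of HOXA and HOXC.

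**Figure D3:**
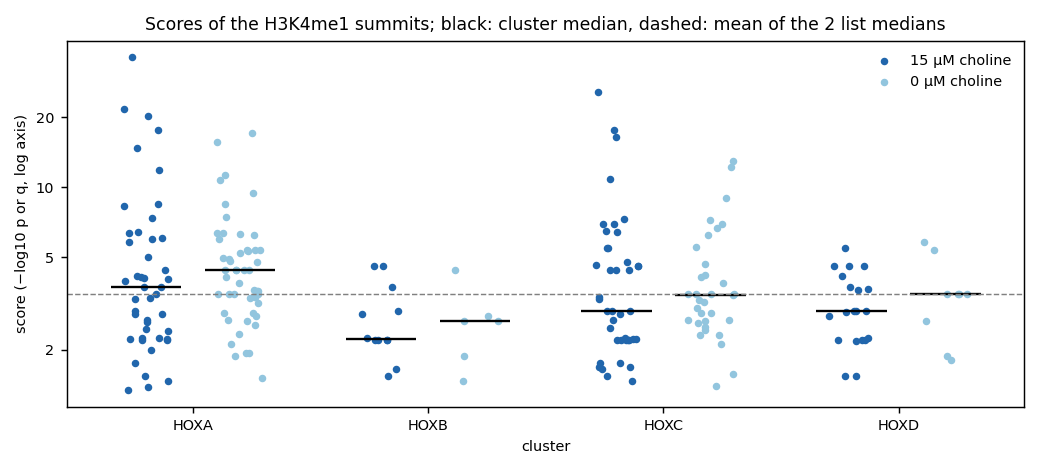
Score of every H3K4me1 summit in the 4 clusters (−log10 p or q, log axis) at 15 µM and 0 µM choline; points are summits, black lines cluster medians and the dashed line the mean of the 2 list medians. Scores above 10 are seen in HOXA and HOXC, and the highest in HOXB and HOXD are 4.58 and 5.83.

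In HOXA the H3K27ac summits ended in HOXA5 at 15 µM and in HOXA4 at 0 µM. From HOXA2 to HOXA5 (43.3 kb) there were 7 H3K27ac summits at 15 µM, against 9 at 0 µM, and from HOXA6 to HOXA13 (54.7 kb) 0 at both doses. The stretches were chosen after the positions were seen. H3K4me1 did not follow this division: HOXA2 to HOXA5 held 16 summits at 15 µM and 15 at 0 µM, and HOXA6 to HOXA13 held 24 at 15 µM and 32 at 0 µM. The HOXA2 to HOXA5 stretch had the higher median H3K4me1 score, 4.57 at 15 µM and 4.92 at 0 µM, and the HOXA6 to HOXA13 stretch had 2.88 at 15 µM and 3.59 at 0 µM. The posterior genes HOXA9, HOXA10, HOXA11 and HOXA13 therefore carried H3K4me1 over a stretch with no H3K27ac listed.

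The highest-scoring H3K27ac of the HOX clusters was at HOXA3. RefSeq gives this gene a long annotation of 45.6 kb that also spans HOXA4, HOXA5 and HOXA6, and 7 separate starts, more than any other HOX gene here. All 7 of the HOXA summits at 15 µM and 9 of the 11 at 0 µM fell inside it. At 15 µM their scores were 8.17, 9.66, 8.36, 12.6, 24.8, 6.68 and 10.1 in genome order. At 0 µM the 9 scores were 18.9, 19.0, 12.7, 20.5, 8.81, 40.6, 9.23, 6.05 and 8.46. The best summit at each dose was beside the same start, 27122372, whose sequence is given above. The 15 µM summit, at 27122251, lay 121 bp downstream of it and scored above 94.4% of its list. The 0 µM summit, at 27122631, lay 259 bp upstream and scored above 96.1% of its list. They were 380 bp apart. Both also fell in HOXA-AS2, a noncoding gene overlapping HOXA3, and the summit lists carry no strand.

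Around the KLF-core-rich HOXA3 start, 27113842, the nearest summit was 949 bp downstream at 15 µM and 770 bp upstream at 0 µM. The start at 27122372, which had the highest summit, contained no CCNCNCCC match in its 300 bases. Such a match is a run of letters and says nothing about binding, and its absence covers this window alone.

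Toward the anterior end the doses differed in position. The other 2 HOXA summits at 0 µM fell in HOTAIRM1, a noncoding gene of the anterior end, at 27096834 with a score of 22.8, above 86.8% of the list, and at 27099151 with a score of 7.65. At 15 µM the nearest H3K27ac summit lay 14683 bp from the first of these and 12366 bp from the other. Toward HOXA5, a patterning gene of lung and thorax, the order was the opposite. A 15 µM summit at 27142065, score 10.1, lay 1.01 kb from a HOXA5 end, just outside the 1 kb limit, and the nearest at 0 µM was 12.3 kb away. The 15 µM summits thus ran from 27111517 to 27142065 and those at 0 µM from 27096834 to 27128766, spans of 30.5 kb at 15 µM and 31.9 kb at 0 µM.

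HOXC acetylation was confined, in these lists, to the 18.2 kb from HOXC10 to HOXC9, 2 posterior genes known for roles in the lumbar and thoracic skeleton in mouse. The 3 summits at 15 µM had scores of 11.6, 15.0 and 9.46, and the 7 at 0 µM had scores of 5.09, 9.59, 8.57, 11.2, 12.2, 10.6 and 11.1. The highest at 15 µM, position 53995749 in the noncoding gene HOXC-AS2, had a 0 µM counterpart 14 bp away, at 53995735 with a score of 11.1. None reached the rank of the highest HOXA3 summits: the best stood above 78.9% of the list at 15 µM and 59.0% at 0 µM. HOXC13, HOXC12 and HOXC11 on one side, over 38.8 kb, and HOXC8, HOXC6, HOXC5 and HOXC4 on the other, over 47.0 kb, had 0 H3K27ac summits at both doses.

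H3K4me1 crossed those borders. The HOXC8 to HOXC4 stretch had 18 summits at 15 µM and 8 at 0 µM, the HOXC13 to HOXC11 stretch 10 at 15 µM and 12 at 0 µM, and the HOXC10 to HOXC9 stretch 8 at 15 µM and 10 at 0 µM. The highest H3K4me1 summit of the cluster lay in the acetylated stretch at both doses, at 53988449 at 15 µM and 53988128 at 0 µM. HOXC8, a gene of the thoracic region, had 4 H3K4me1 summits within 1 kb of an end at 15 µM, the best scoring 16.5, and 2 at 0 µM, the best scoring 6.23. HOXC11 had 2 at each dose, with best scores of 10.8 at 15 µM and 12.2 at 0 µM.

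HOXB was the emptiest cluster. Over the 65.3 kb from HOXB1 to HOXB5, genes used in the hindbrain and neck region and, for HOXB4, in blood stem cells, no summit was listed in any of the 4 lists. HOXB1 was 338 kb from the nearest H3K27ac summit at 15 µM and 337 kb at 0 µM, and its nearest H3K4me1 summit was 71.6 kb away at 15 µM and 29.2 kb at 0 µM. HOXB4 was 24.2 kb from H3K4me1 at 15 µM and 44.9 kb at 0 µM. HOXB6 to HOXB9 (30.6 kb) held 4 H3K4me1 summits at 15 µM, against 1 at 0 µM. The 102 kb between HOXB9 and HOXB13, with HOXB13 itself, held 8 at 15 µM and 5 at 0 µM. HOXB13, a prostate lineage factor, had 2 H3K4me1 summits at an end at both doses, with best scores of 4.58 at 15 µM and 4.39 at 0 µM.

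HOXD, whose posterior genes pattern digits and genitalia, had H3K4me1 mainly on the side of the high-numbered genes. HOXD13 to HOXD8 (45.2 kb) held 13 summits at 15 µM and 7 at 0 µM, and the 58.2 kb from there to HOXD1 held 7 at 15 µM and 2 at 0 µM. At 0 µM the longest stretch with no H3K4me1 summit ran 49.4 kb, over chr2:176110191-176159630, across HOXD10, HOXD9, HOXD8 and HOXD4. It also took in part of HOXD11 and the listed start of HOXD3. The 15 µM list had 10 summits there, with a median score of 3.28 and a highest score of 5.48. The stretch was picked for holding none at 0 µM, so the contrast is a description. HOXD4 itself was 7.59 kb from the nearest H3K4me1 summit at 15 µM and 8.08 kb at 0 µM.

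The next comparison was at the gene starts. A start came from the RefSeq promoter table for 20 HOX genes. For the other 19 either annotated gene end was used, so there a summit may lie at the far end of the gene. Of all 19974 protein-coding genes, 4161 were placed in this way, a smaller part than among HOX genes. The shares of HOX genes and of all genes are therefore not fully alike in method. H3K27ac lay within 1 kb of a start in 2 of 39 HOX genes at 15 µM (5.13%, exact 95% interval 0.627 to 17.3), against 3 of 39 at 0 µM (7.69%, 1.62 to 20.9). Over all protein-coding genes the shares were 16.4% at 15 µM and 28.7% at 0 µM. HOX genes were thus below the background at both doses, and at 0 µM the background lay outside the interval. With scores of at least 10, 1 HOX gene was left at 15 µM. The interval treats neighbouring genes as independent, which genes of 1 cluster are not. The 2 genes at 15 µM were HOXA3 and HOXC9, and the 3 at 0 µM included HOXA3 and HOXC10.

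H3K4me1 lay within 1 kb of a start in 19 HOX genes at 15 µM (48.7%, 32.4 to 65.2), against 20 at 0 µM (51.3%, 34.8 to 67.6). The share over all genes was 46.1% at 15 µM and 46.1% at 0 µM, inside both intervals. No HOX excess or deficit is thus shown. Equality is not shown either, because HOX genes were more often tested at both gene ends. By cluster the counts were 7 of 11 HOXA genes at 15 µM and 10 of 11 at 0 µM, and 2 of 10 HOXB genes at 15 µM and 1 of 10 at 0 µM. They were 6 of 9 HOXC genes at 15 µM and 8 of 9 at 0 µM, and 4 of 9 HOXD genes at 15 µM and 1 of 9 at 0 µM. By this call most HOXA and HOXC genes were marked, and few HOXB genes. Most HOXB and HOXC genes were tested at either gene end, and most HOXA and HOXD genes at listed starts. With scores of at least 5, 6 HOX genes were left at each dose. HOXC4, HOXC5 and HOXC6 begin at the same annotated position, and 1 summit at 0 µM called all 3.

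**Figure D4:**
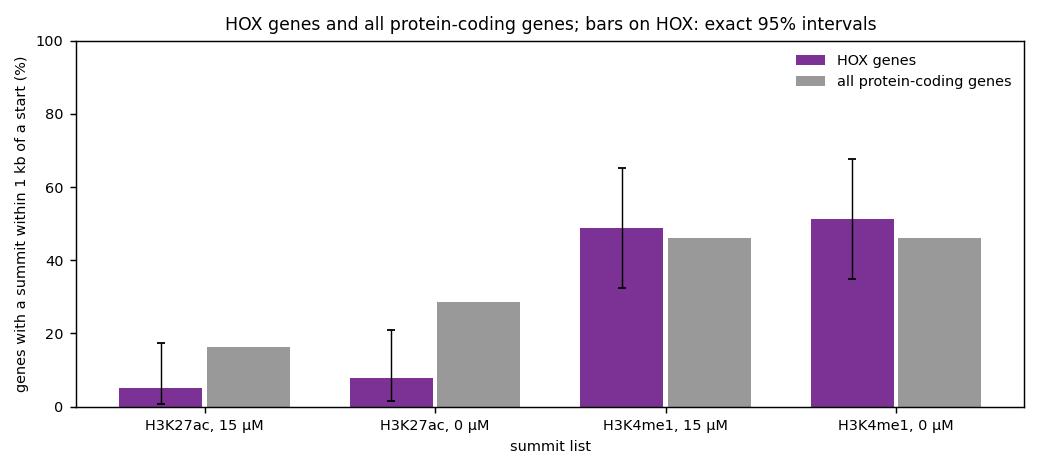
Share of genes with a summit within 1 kb of a start (%, vertical axis) in each list, for the 39 HOX genes with exact 95% intervals and for all 19974 protein-coding genes. HOX genes reach 5.13% and 7.69% for H3K27ac, below all genes, and 48.7% and 51.3% for H3K4me1, beside 46.1% of all genes.

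By position in the body axis, anterior genes (groups 1 to 3) had an H3K4me1 start in 3 of 8 at both doses. Central genes (groups 4 to 8) had one in 5 of 15 at 15 µM and 7 of 15 at 0 µM. Posterior genes (groups 9 to 13) had one in 11 of 16 at 15 µM and 10 of 16 at 0 µM. At 15 µM the exact intervals were 8.52 to 75.5% for anterior, 11.8 to 61.6% for central and 41.3 to 89.0% for posterior genes. At 0 µM they were 8.52 to 75.5%, 21.3 to 73.4% and 35.4 to 84.8%. The intervals overlap at each dose, and all include the 46.1% of all genes. No posterior excess is thus shown. Each group also mixed genes tested at listed starts with genes tested at either gene end. H3K4me1 without H3K27ac was found at 17 of 39 HOX starts at both doses (43.6%), beside 37.1% of all genes at 15 µM and 30.0% at 0 µM. Neither mark was found at 20 HOX genes at 15 µM (51.3%), against 19 at 0 µM (48.7%), beside 46.5% of all genes at 15 µM and 41.3% at 0 µM. The unmarked genes included 8 of 10 HOXB genes at 15 µM and 9 of 10 at 0 µM, and 5 of 9 HOXD genes at 15 µM and 8 of 9 at 0 µM.

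**Figure D5:**
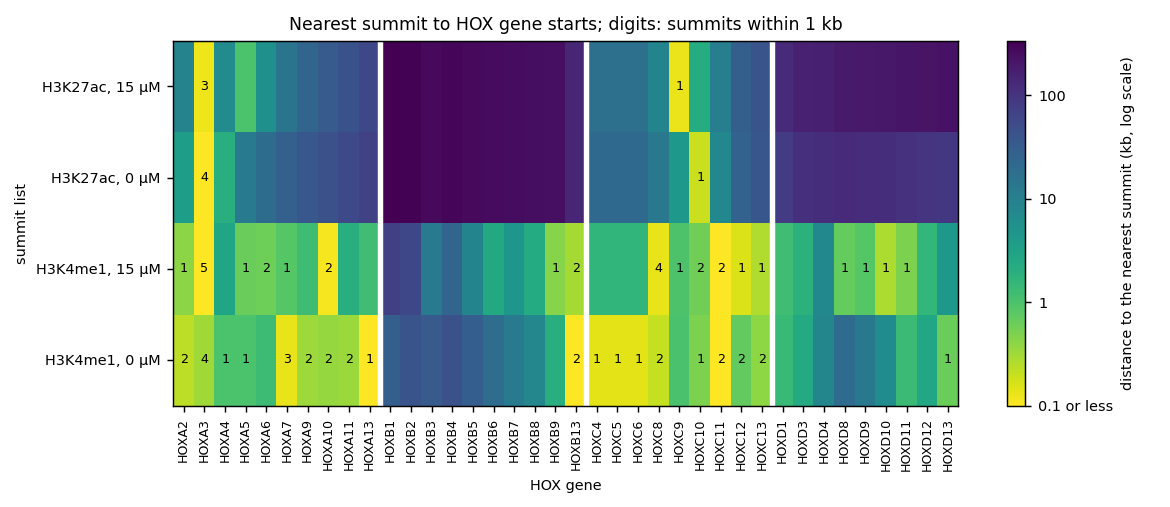
Distance from HOX genes to the nearest summit in each list (colour, kb, log scale), with digits giving the summits within 1 kb of a start. In the H3K27ac rows every HOXB gene is 139 kb or farther from a summit, and HOXA3 is the one gene shown with a digit at both doses.

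Gene bodies with 5 kb on either side gave a wider view. An H3K27ac summit lay in that window in 5 HOX genes at 15 µM (12.8%), against 6 at 0 µM (15.4%), beside 31.8% of all genes at 15 µM and 44.1% at 0 µM. For H3K4me1 the counts were 33 genes at 15 µM (84.6%), against 27 at 0 µM (69.2%), beside 89.4% of all genes at 15 µM and 88.8% at 0 µM. The median HOX window held 4 H3K4me1 summits at both doses, and the median window of all genes 6. HOX windows overlap within a cluster, so 1 summit can count for several genes.

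Starts were then compared between doses. A start was called lost when it had a 0 µM summit within 1 kb and no 15 µM summit within 2 kb, and gained in the opposite case. For H3K27ac, 2 of the 3 HOX starts marked at 0 µM were lost, HOXC10 among them, beside 44.3% of all marked starts. Of the 2 marked at 15 µM, 1 was gained, HOXC9, beside 10.5%. Counts this small cannot be set apart from the background. The lost HOXC10 summit scored 5.09, above 0.169% of its list, and so was barely listed at 0 µM. Deeper in HOXC10, H3K27ac was listed at both doses. A 15 µM summit at 53988054, score 11.6, lay 450 bp from a 0 µM summit, score 11.2. The call thus concerns the gene end and not the whole gene. The HOXC9 summit scored 9.46 and lay 127 bp from a gene end, and the nearest at 0 µM was 4.43 kb away. Requiring absence within 5 kb left 1 lost and 0 gained starts.

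For H3K4me1, 3 of 20 HOX starts were lost (15.0%), HOXA4, HOXA11 and HOXD13, beside 10.3% of all marked starts. Gained were 4 of 19 (21.1%), HOXB9, HOXD8, HOXD9 and HOXD10, beside 12.1%. The lost summits scored at most 4.92, 3.48 and 2.65, and the nearest 15 µM summits lay 2.89 kb from HOXA4, 2001 bp from HOXA11, just past the limit, and 4.38 kb from HOXD13. The gained ones scored 3.73, 2.93, 2.20 and 3.73. At 0 µM the nearest summit was 2.10 kb from HOXB9, 19.5 kb from HOXD8, 12.5 kb from HOXD9 and 6.59 kb from HOXD10. HOXD8, HOXD9 and HOXD10 are neighbours in the stretch that had no H3K4me1 summit at 0 µM, so they form 1 regional difference rather than 3. Requiring absence within 5 kb left 0 lost and 3 gained H3K4me1 starts.

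Summit positions were matched between doses within 500 bp. Of the H3K27ac cluster summits, 4 of 10 at 15 µM (40.0%, 12.2 to 73.8), against 4 of 18 at 0 µM (22.2%, 6.41 to 47.6), had a partner, beside 50.7% of the whole list at 15 µM and 38.7% at 0 µM. For H3K4me1 it was 48 of 118 at 15 µM (40.7%, 31.7 to 50.1), against 45 of 99 at 0 µM (45.5%, 35.4 to 55.8), beside 43.5% of the whole list at 15 µM and 44.5% at 0 µM. The whole-list shares fall inside all 4 intervals. The shares depend on the distance allowed: within 2 kb, 78.8% of H3K4me1 cluster summits at 15 µM and 94.9% at 0 µM had a partner. By cluster, the H3K4me1 shares ran from 16.7% in HOXB to 53.7% in HOXC at 15 µM, and from 33.3% in HOXA and HOXB to 66.7% in HOXD at 0 µM, so the order of the clusters was not the same at both doses.

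The marks were then compared with each other. An H3K4me1 summit of the same dose lay within 1 kb of 7 of 10 H3K27ac summits at 15 µM (70.0%, 34.8 to 93.3), against 15 of 18 at 0 µM (83.3%, 58.6 to 96.4), beside 58.5% of the whole list at 15 µM and 65.2% at 0 µM. Both whole-list shares fall inside the cluster intervals. Within 500 bp the cluster share at 15 µM was 30.0%. In the other direction, 6 of 118 H3K4me1 summits at 15 µM (5.08%, 1.89 to 10.7), against 16 of 99 at 0 µM (16.2%, 9.53 to 24.9), had H3K27ac within 1 kb. The whole-list shares were 4.82% at 15 µM and 7.67% at 0 µM, the second below the cluster interval. That interval treats neighbouring summits as independent, which they are not. Of the 16 summits, 10 lay in HOXA and 6 in HOXC, so no excess over the background is shown.

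The microRNA genes shown above lay at different distances from the marks. MIR196A2, between HOXC10 and HOXC9, lay 3.68 kb from the nearest H3K27ac summit at 15 µM and 1.74 kb at 0 µM. MIR196B, beside HOXA10 in the part of HOXA with no H3K27ac listed, lay 27.4 kb away at 15 µM and 40.7 kb at 0 µM. Of the HOXB genes, MIR196A1 lay 237 kb away at 15 µM and 236 kb at 0 µM, and MIR10A 290 kb at 15 µM and 288 kb at 0 µM. H3K4me1 was 0.256 kb from MIR196B at 15 µM and 0.125 kb at 0 µM, and 22.7 kb from MIR10A at 15 µM and 43.4 kb at 0 µM. miR-196a thus has identical copies in a cluster with H3K27ac and in one with none listed.

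Of 24 noncoding genes of the clusters, 3 had an H3K27ac start at 15 µM and 4 at 0 µM. Beside them stand 16.4% of all protein-coding genes at 15 µM and 28.7% at 0 µM, a background without noncoding genes. HOTAIRM1 and HOXC-AS3 were lost, HOXC-AS1 was gained, and HOXA-AS2 and HOXC-AS2 were marked at both doses. Over protein-coding genes, 44.3% of marked starts were lost and 10.5% gained. Counts this small cannot be set apart from these shares. HOTAIR, the HOXC transcript known for acting with Polycomb, and HOTTIP, which lies beyond HOXA13 and is known for activating posterior HOXA genes, had no H3K27ac summit within 5 kb at either dose. Each had H3K4me1 within 5 kb, 5 summits at 15 µM and 8 at 0 µM for HOTAIR, and 6 at both doses for HOTTIP.

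Promoter sequence was compared for the 20 HOX genes in the promoter table, of which HOXA3 alone gave 7 promoters, HOXB 1 and HOXC 1 shared by HOXC4 and HOXC5. Over these 26 distinct HOX promoters and 22034 promoters of all protein-coding genes, the median number of CpG was 22.5 in HOX and 21 in all promoters, the median GC content 58.0% in HOX and 62.3% in all, and the CpG observed over expected ratio 0.855 in HOX and 0.737 in all. CCNCNCCC was found on either strand in 17 of 26 HOX promoters (65.4%), beside 65.9% of all. TGATNNAT was found in 3 of 26 (11.5%), those of HOXA2, HOXB1 and HOXD11, beside 5.21% of all.

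Genes that work with or upstream of HOX genes were looked at in fixed lists. The TALE cofactors (PBX, MEIS and PKNOX genes), which bind DNA together with HOX proteins, had an H3K27ac start in 2 of 9 at 15 µM and 4 of 9 at 0 µM, beside 16.4% of all genes at 15 µM and 28.7% at 0 µM. Of the 4, MEIS1, PBX2 and PBX3 were lost, beside 44.3% of all marked starts, and none was gained. These calls concern the starts and not the whole genes. The gene windows of MEIS1 and PBX3 held 9 and 8 H3K27ac summits at 15 µM, against 12 and 4 at 0 µM. That of PBX2 held 0 at 15 µM, against 1 at 0 µM. MEIS2 had no summit at a start but 43 H3K27ac summits in its gene window at 15 µM, against 41 at 0 µM. H3K27ac was thus listed in this cofactor locus, while none was listed in the HOXB and HOXD clusters. MEIS2 was picked after its values were seen, and a locus with no listed summit is not shown to lack the mark.

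Polycomb and trithorax regulators, which keep HOX genes silent or active, had an H3K27ac start in 5 of 25 at 15 µM and 15 of 25 at 0 µM, beside 16.4% of all genes at 15 µM and 28.7% at 0 µM. Lost were 9 of the 15 (PHC2, RING1, EZH2, BMI1, MEN1, KDM6B, SUZ12, CBX8 and DOT1L), and PHC3 was gained. These calls concern the starts. PHC2, BMI1, KDM6B and DOT1L still had 3, 2, 5 and 6 H3K27ac summits in their gene windows at 15 µM, and the other lost genes had none. EZH2, the H3K27 methyltransferase, and SUZ12, a subunit of the same complex, had no H3K27ac summit in the gene window at 15 µM, against 1 and 3 at 0 µM. Over all genes, 44.3% of marked starts were lost under the same rule, and the 15 µM list was the shorter one. Their part in the HOX values was not tested.

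In the retinoic acid pathway, which switches on anterior HOX genes in embryos, 3 of 13 genes had an H3K27ac start at 15 µM and 2 at 0 µM, beside 16.4% of all genes at 15 µM and 28.7% at 0 µM. RARA, a retinoic acid receptor, was lost, and ALDH1A1, an enzyme that makes retinoic acid, was gained, beside 44.3% of all marked starts lost and 10.5% gained. The RARA gene window still held 3 H3K27ac summits at 15 µM, against 9 at 0 µM. That of ALDH1A1 held 18 at 15 µM and 15 at 0 µM. RARB had 16 H3K27ac summits in its gene window at both doses. The ParaHox genes and other homeobox relatives, evolutionary cousins of the HOX clusters, had an H3K27ac start in 0 of 9 at both doses, with CDX2, the intestinal regulator, holding 5 summits in its window at 15 µM and 3 at 0 µM.

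A list of genes chosen from the regions around the clusters had an H3K27ac start in 12 of 29 at 15 µM and 15 of 29 at 0 µM. These lay above the 16.4% of all genes at 15 µM and 28.7% at 0 µM. Lost were LNPK and MTX2 in the HOXD region, CALCOCO1 and COPZ1 in the HOXC region, and ATP5MC1 in the HOXB region. The MTX2 gene window still held 4 H3K27ac summits at 15 µM, against 6 at 0 µM. Gained were CBX1 and SNX11, both in the HOXB region. Not all listed genes adjoin a cluster: at 15 µM no H3K27ac summit outside HOXB lay closer than 141 kb. The counts therefore do not describe the cluster borders. The 5 lost of 15 stand beside 44.3% of all marked starts, and the 2 gained of 12 beside 10.5%. EVX1 and EVX2, homeobox genes at the posterior ends of HOXA and HOXD, had no H3K27ac summit within 5 kb at either dose.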

How the data were processed

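Huh7 cells were profiled by ChIP-seq for H3K27ac and H3K4me1 at 15 µM and 0 µM choline, 1 library each. The authors deposited 1 summit list per library, with a position and a score in the layout of MACS2 summit files, read as a −log10 p-value or q-value. Which of these it is, and how peaks were called, is not given in the sources used here. Build hg38 and the tools MACS2, deepTools, Picard and Bowtie come from the submitters' processing notes. Read depth is unknown, and list length depends on it.

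Summits on chromosomes 1 to 22 and X were written 1-based. Gene positions, promoters and microRNAs came from RefSeq tables of GRCh38.p14, which give no exons or UTRs. Intervals are exact (Poisson for counts, Clopper-Pearson for shares), at 95%, and cover counting error only. No p-value was computed. Measures were checked on simulated data. Members, lists and tests were chosen with earlier results of these data known. All HOX genes count as members, though a few results on single genes are not reported here; genes of other lists are named where a start was lost or gained or where they flank a cluster, and the others (MEIS2, RARB, CDX2, HOTAIR, HOTTIP, HOXC-AS2) were chosen after their values were seen. Work used Python 3.11.15, pandas 2.3.3, numpy 2.4.6 and scipy 1.17.1.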

Additional observations from a re-analysis of the deposited data

How the results depend on the processing

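Requiring scores of at least 10 for H3K27ac and 5 for H3K4me1 left, over the 4 clusters, 5 H3K27ac summits at 15 µM, against 10 at 0 µM, and 26 H3K4me1 summits at 15 µM, against 27 at 0 µM. The scaled H3K4me1 difference then was 0.11, and that of HOXD turned to -0.92. With 50 kb added on either side, H3K4me1 at 0 µM had 149 summits. At starts, H3K27ac at 15 µM was left at 1 gene with either gene end for all genes and 1 under the score limits, and H3K4me1 at 6 genes at each dose under the score limits. H3K4me1 within 500 bp was at 12 genes at 15 µM.

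Requiring absence within 5 kb gave 1 lost and 0 gained H3K27ac starts and 0 lost H3K4me1 starts. With absence within 1 kb, 8 H3K4me1 starts were lost and 7 gained. Equal list lengths left 1 lost H3K27ac start. Sharing of H3K27ac at 0 µM was 55.6% within 2 kb. Sharing of H3K4me1 within 250 bp, 1 kb and 2 kb was 25.4%, 63.6% and 78.8% at 15 µM, and 30.3%, 72.7% and 94.9% at 0 µM. H3K4me1 beside H3K27ac was 30.0% within 500 bp and 100% within 2 kb at 15 µM, and 100% within 2 kb at 0 µM. The cause of these moves was not tested, beyond the widths and limits themselves. The scaled H3K27ac difference over the 4 clusters was -3.90, -8.00 with no scaling and -2.25 under the score limits, all of 1 sign. For single clusters it stayed below 0 in HOXA and HOXC under the alternatives run. No paired analysis was possible because each mark and dose had 1 library, and for the same reason no library could be left out. Unknown depth limits every statement on absent summits.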
